A study of Homo sapiens with 4 samples.

Results

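Dividing and non-dividing cells of the Ishikawa line, an established line of human endometrial adenocarcinoma, were compared within each time point of an estrogen treatment. The members were chosen by measured values of these same cells. Cells were called dividing where the UMIs of TOP2A and MKI67 in the cell summed to 5 or more, and non-dividing where they summed to 0. A UMI (unique molecular identifier) marks 1 captured transcript. TOP2A encodes the topoisomerase that untangles replicated DNA, and MKI67 encodes the Ki-67 protein that coats mitotic chromosomes. Of 4613 Ishikawa cells kept, 1569 were dividing, 1474 were non-dividing, and the rest, with a sum between these limits, entered neither group. The whole series held 9239 kept cells of the lines Ishikawa and T-47D.

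The study followed single cells after treatment with 17β-estradiol (E2), the ligand of the estrogen receptor. Before treatment the cultures were held for 5 days in hormone-depleted medium, and the cells then received 10 nM E2 for 2, 4 or 8 h, or the vehicle DMSO, which stands for 0 h. Cells of all 4 time points carried MULTI-seq tags, were mixed, and were run as 1 gene expression library per line, with a library of the tags beside it. Every time point was 1 culture, so no E2 time has a replicate. Dividing and non-dividing cells of each culture were told apart by counts of the same cells, so their comparison is a description and no test was run. The intervals below (95%) hold for counting error alone and say nothing of how cultures vary.

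Both groups came from the same cultures and carried the markers of their line. EPCAM, KRT8, KRT18 and KRT19, which mark epithelium, and PAX8 and SOX17, which mark endometrial epithelium, were present in every pool, PAX8 at 93.3 to 137 CPM (UMIs of the gene scaled to 1e+06 UMIs of its pool) in dividing cells and at 94.4 to 125 CPM in non-dividing cells. Of 8 markers of T-47D, the summed level was 14.5 to 23.4 CPM in dividing and 18.0 to 26.0 CPM in non-dividing pools, nearly all of it TRPS1. GATA3, PIP, ANKRD30A and SERPINA6 had no UMI in either group, which allows at most 0.0813 CPM in the dividing and 0.12 CPM in the non-dividing cells. Summed markers of other cell types (15 genes) lay at 24.9 to 36.6 CPM in dividing and 27.1 to 32.1 CPM in non-dividing pools, mostly COL1A1, and CDH5, DCN and HBB were at 0.

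A cell that divides first copies its DNA in S phase and then, in G2 phase and mitosis, condenses the copied chromosomes, attaches them to a spindle of microtubules and pulls them apart. The genes of each step are switched on in turn. E2F factors raise the genes of replication at the entry to S phase, and a complex of B-MYB (MYBL2), MuvB proteins and FOXM1 raises the genes of G2 phase and mitosis, many of which carry CCAAT and CHR elements near their start. TOP2A and MKI67 belong to the later group, so the rule itself favours cells in S, G2 and M phase. A sum of 0 does not show that a cell had left the cycle: it is the absence of 2 transcripts at the depth of that cell.

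Dividing cells made up 34.0% of all kept cells (Clopper-Pearson interval 32.6 to 35.4%). Vehicle cells held 264 dividing of 776 (34.0%, 30.7 to 37.5%). After E2 the numbers were 519 of 1480 at 2 h (35.1%, 32.6 to 37.6%), 314 of 892 at 4 h (35.2%, 32.1 to 38.4%), and 472 of 1465 at 8 h (32.2%, 29.8 to 34.7%). The 4 intervals overlapped. Non-dividing cells made up 33.9, 32.2, 27.7 and 33.2% at 0, 2, 4 and 8 h, the lowest share being that of 4 h, where cells between the limits took 37.1%. When each cell was thinned to 11673 UMIs, and cells with fewer UMIs were left out, the shares were 27.3, 26.5, 23.6 and 23.3%. The cells too shallow for thinning were 103, 150, 71 and 137 in the order of the times, among them 54 dividing and 243 non-dividing cells. The share at 4 h stood above that at 0 h in full cells and below it in thinned cells, so no order over time is read from either. In T-47D the same rule gave 8.46, 8.62, 9.02 and 13.2% dividing cells at 0, 2, 4 and 8 h, from 4626 kept cells.

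**Figure D1:**
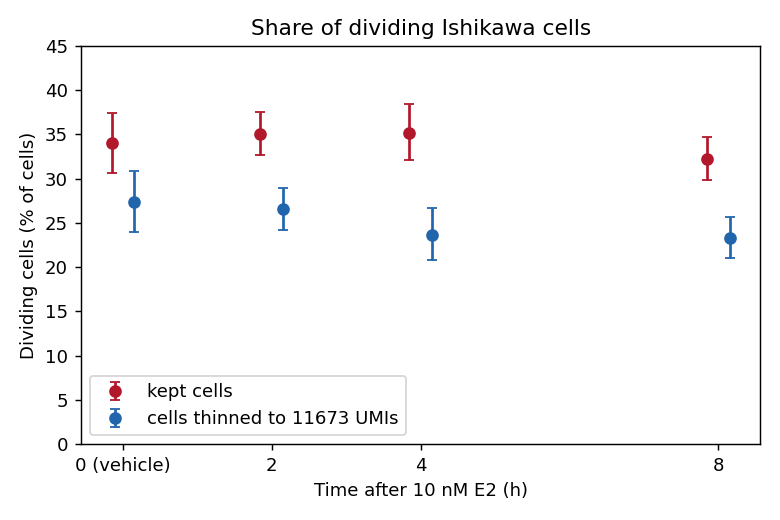
Share of Ishikawa cells called dividing (y axis, % of cells) against hours after 10 nM E2 (x axis). Red shows kept cells, and blue shows those with at least 11673 UMIs, thinned to that number. Bars are exact binomial intervals (95%), the 4 red shares lie between 32.2 and 35.2%, and the blue shares between 23.3 and 27.3%.

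Dividing cells held more RNA counts than non-dividing cells at every time point. The rule counts UMIs per cell, so it favours deeper cells as dividing and shallower cells as non-dividing. How much of the gap in depth and in genes the rule itself made was not tested. Their median ran from 22552 UMIs at 0 h to 24696.5 at 8 h, against 15366 at 0 h to 17210 at 4 h in non-dividing cells, and the median number of genes was 4882 to 5055 against 3953 to 4258. The share of mitochondrial UMIs was alike, with medians of 3.88 to 4.23% in dividing and 3.95 to 4.37% in non-dividing cells. GFP, a reporter listed among the features and read in Ishikawa cells only, took 2.15, 1.54, 2.19 and 2.09% of all UMIs of the dividing pools at 0, 2, 4 and 8 h and 7.03, 4.25, 6.54 and 5.92% of the non-dividing pools. GFP and tdTomato were left out of every pool total. The part of depth, of GFP and of free RNA in the differences below was not tested, and values in cells of like depth (15000 to 20000 UMIs) and under 1% GFP are given for the named genes that lost their 1.5-fold difference there.

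Summed over cells, the 8 pools held 5934900, 12039819, 7514156 and 11408076 UMIs in dividing cells and 4189374, 7893309, 4386832 and 8550069 UMIs in non-dividing cells at 0, 2, 4 and 8 h. TOP2A stood at 381, 355, 293 and 285 CPM and MKI67 at 412, 394, 360 and 361 CPM in the dividing pools, and both are at 0 in non-dividing cells by the rule. Differences between the groups are given as log2 of (CPM + 1) in dividing over (CPM + 1) in non-dividing cells, which understates low genes. Since the rule sorted these same cells, every value below is a description of what goes along with the 2 transcripts and is no independent evidence for the groups.

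Of 8040 genes that averaged 10 CPM or more in the 8 pools, 362 (4.5%) were at least 1.5-fold higher in dividing cells at all 4 time points and 112 (1.39%) were at least 1.5-fold lower. At single time points the higher genes numbered 550 (6.84%), 489 (6.08%), 477 (5.93%) and 496 (6.17%) at 0, 2, 4 and 8 h, and the lower genes 419 (5.21%), 243 (3.02%), 300 (3.73%) and 301 (3.74%). The 0 h and 4 h pools were the smallest. Genes of the cell cycle lists made up 170 (47%) of the 362 higher genes and 1 of the 112 lower genes, beside 249 (3.1%) of all 8040. The median over all genes was between -0.04 and 0.00 at the 4 time points, so the pools were centred alike. The genes just past the limit were MAD2L2 (smallest log2 fold change over the times 0.59), H2AFV and MMS22L, and those just short of it E2F1 (0.58), ACOT7 and FKBP5. On the lower side ZNF785 (-0.59), AP003392.6 and MFSD3 lay just inside, and CELF4 (-0.58), EPB41L4A-AS1 and MOAP1 just outside.

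**Figure D2:**
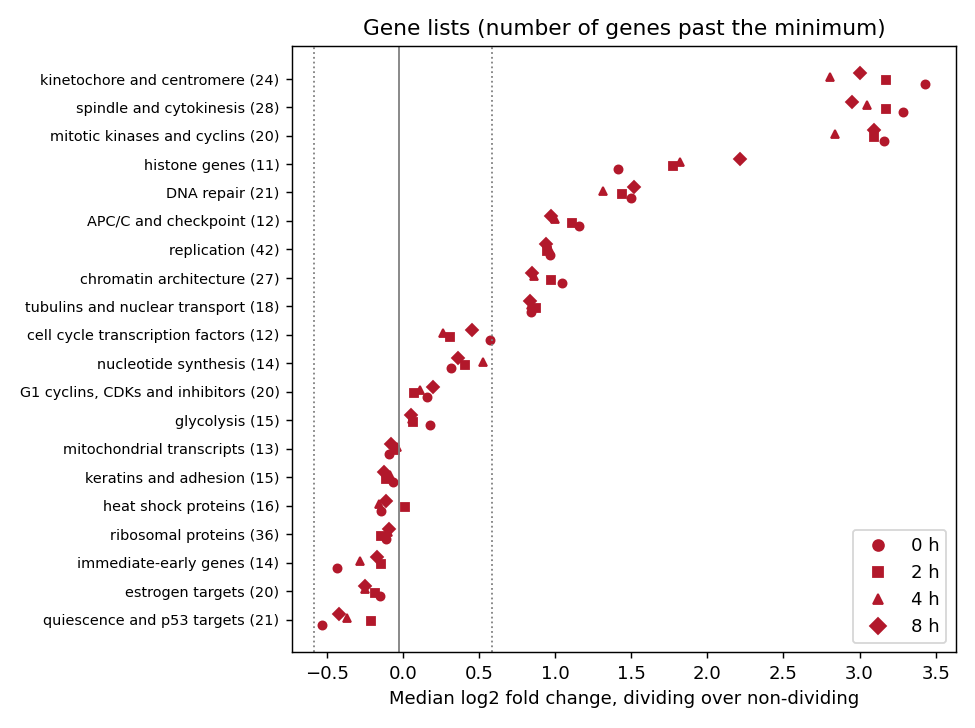
Median log2 fold change of dividing over non-dividing cells (x axis) for 20 gene lists (y axis, with the number of genes past the minimum), one symbol per time point. The solid line marks the median of all genes and the dotted lines 1.5-fold; the lists of the kinetochore, the spindle and the mitotic kinases lie between 2.80 and 3.43, while those of ribosomal, mitochondrial and glycolytic genes lie near the line of all genes.

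Of the kinetochore and centromere genes, which attach chromosomes to the spindle, all 24 members past the minimum (of 25 in the list) were higher at all 4 time points, with medians of 3.43, 3.17, 2.80 and 3 at 0, 2, 4 and 8 h. SPC25, a subunit of the NDC80 complex that grips the microtubule, had 98.6, 97.6, 85.0 and 85.3 CPM in dividing cells and 3.1, 2.41, 3.19 and 4.09 CPM in non-dividing cells, log2 fold changes of 4.6, 4.85, 4.36 and 4.08. NDC80 itself had 70.9, 59.0, 51.5 and 51.9 CPM against 1.19, 2.28, 2.28 and 2.11 CPM. In both genes every dividing pool was far above every non-dividing pool. Both were picked for large fold changes at all 4 time points, which favours such a gap. CENPF, a protein of the outer kinetochore, reached 499, 421, 352 and 356 CPM against 21.0, 23.9, 21.4 and 21.9 CPM, a ratio of 23.7 (19.2 to 29.7) at 0 h and 16.3 (14.1 to 18.9) at 8 h.

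Spindle and cytokinesis genes, the motors and scaffolds that move chromosomes and cut the cell, were higher as a whole list, 28 of 28 past the minimum (31 in the list), with medians of 3.28, 3.17, 3.05 and 2.95. DLGAP5, which stabilises spindle microtubules, had 80.5, 71.7, 65.7 and 58.6 CPM in dividing cells and 2.63, 2.53, 3.42 and 2.92 CPM in non-dividing cells. CKAP2L, also a spindle protein, had 40.9, 35.2, 30.3 and 30.4 CPM against 0.716, 1.52, 0.684 and 1.05 CPM. GTSE1, which binds microtubule tips and p53, had 108, 98.4, 80.6 and 83.8 CPM against 3.82, 3.29, 5.02 and 4.68 CPM. No dividing pool of these genes overlapped a non-dividing one, which their choice for large fold changes at all 4 time points favours. The motor KIF22 was the lowest member, at 74.6, 72.5, 61.6 and 64.1 CPM against 32.0, 32.6, 27.6 and 33.0 CPM.

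Of the kinases and cyclins that drive mitosis, 19 of 20 past the minimum (23 in the list) were higher at all times, with medians of 3.16, 3.1, 2.84 and 3.1. CDK1, the kinase at the centre of mitotic entry, had 161, 155, 143 and 152 CPM in dividing cells and 18.1, 15.6, 16.2 and 15.2 CPM in non-dividing cells. Its partner CCNB1 (cyclin B1) had 263, 266, 227 and 223 CPM against 36.5, 41.0, 38.1 and 40.7 CPM, a ratio of 7.2 (6.1 to 8.56) at 0 h and 5.49 (4.9 to 6.16) at 8 h. PLK1, which acts at centrosomes and kinetochores, had 45.7, 44.8, 36.7 and 37.7 CPM against 1.91, 2.66, 2.28 and 2.22 CPM, the last from 8 to 21 UMIs a pool. PBK, a mitotic kinase and one of the 10 highest genes, had 107, 100, 87.6 and 98.1 CPM against 2.15, 5.19, 5.24 and 5.73 CPM, and AURKA averaged 2.93 and CCNA2 3.83 on the log2 scale. WEE1, the kinase that holds CDK1 inactive, was the one member not past the limit, at 30.8, 29.0, 23.8 and 30.2 CPM against 28.6, 23.4, 23.0 and 26.4 CPM.

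The anaphase-promoting complex marks mitotic proteins for breakdown, and its list divided by role. UBE2C, the enzyme that hands ubiquitin to the complex, had 232, 239, 180 and 212 CPM in dividing cells and 9.31, 8.99, 12.5 and 9.47 CPM in non-dividing cells. Its activator CDC20 had 139, 136, 111 and 106 CPM against 8.12, 10.1, 10.5 and 9.01 CPM. With PTTG1, MAD2L1, FBXO5 and UBE2S these were the 6 of 12 members that passed at all times, mean log2 fold changes 1.49 to 4.29. The core subunits of the complex were not past the limit: CDC23 averaged 0.07, CDC16 0.24, ANAPC1 0.28, CDC27 0.33 and ANAPC11 0.53, so the median of the list, 0.97 to 1.16, falls between both kinds of gene. These subunits, like the further list members named below with a mean only, were named after their values were seen.

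Genes that shape chromosomes had 19 of 27 members higher at all times and medians of 1.05, 0.98, 0.86 and 0.85. The condensin subunits, which compact mitotic chromosomes, lay highest, NCAPG at 91.2, 83.8, 75.5 and 86.2 CPM against 6.68, 6.59, 6.61 and 5.73 CPM and NCAPH at 41.4, 38.8, 32.1 and 36.9 CPM against 3.34, 2.91, 1.82 and 2.22 CPM. HMGB2, a DNA-bending protein, had 385, 342, 259 and 280 CPM against 48.2, 45.7, 41.7 and 44.4 CPM. Among the lamins of the nuclear envelope, LMNB1 (0.90 on average) and LMNB2 (1.23) were higher, whereas LMNA had 254, 214, 215 and 188 CPM in dividing and 286, 243, 246 and 215 CPM in non-dividing cells. TOP2B, the sister enzyme of TOP2A, averaged -0.03. Tubulins and the Ran system of nuclear transport had 11 of 18 members higher, with medians of 0.84 to 0.88, led by KPNA2, an import receptor, at 209, 192, 170 and 166 CPM against 42.5, 44.8, 42.2 and 45.6 CPM, and by TUBB4B, a tubulin, at 1.40 on average.

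**Figure D3:**
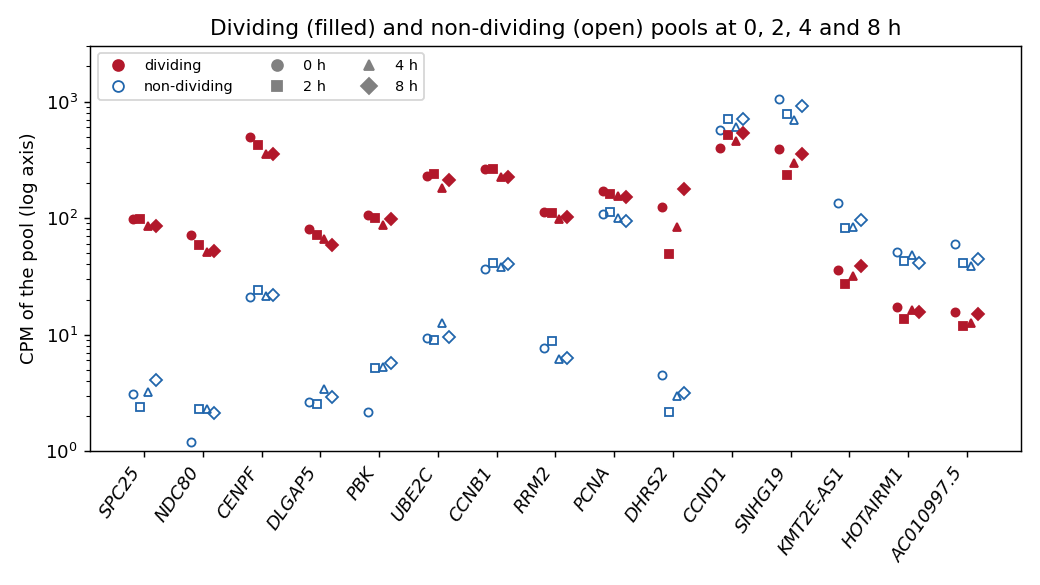
Level of 15 named genes (y axis, CPM of the pool on a log axis) in each of the 8 pools, dividing cells filled and non-dividing cells open, with one symbol per time point. From SPC25 to DHRS2 the filled symbols lie above the open ones in every pair, and from CCND1 to AC010997.5 below them; the gap is widest for NDC80 and DHRS2 and narrow for PCNA and CCND1.

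The promoters of the mitotic genes were read next, because many of these genes are known to share elements there. For 6470 of the 8040 genes a RefSeq table (GRCh38.p14) gives 300 bases around the start, 250 before and 50 after it, and the window was searched on both strands for the CHR element (TTTGAA or TTCGAA), the CCAAT box (CCAAT), an E2F element (GCGGGAA or GCGCGAA) and the TATA box (TATAAA). These motifs do not share letters, and a gene counts once over all its listed starts. The bases before the start are shown for 8 genes, 5′ to 3′ on the strand of the gene, with the letters of a motif on either strand in capitals. CCNB1, CCNB2, CDC20, PLK1 and CDK1 stand for mitotic entry and exit, CENPF for the kinetochore, and PCNA and E2F1 for S phase. UBE2C, AURKA, CCND1 and MCM2 are not shown. On GRCh38.p14 the stretches are CCNB1 at chr5:69166985-69167149 (plus strand), CCNB2 at chr15:59104981-59105145 (plus strand), CDC20 at chr1:43358816-43358980 (plus strand), PLK1 at chr16:23678724-23678888 (plus strand), CDK1 at chr10:60778313-60778477 (plus strand), CENPF at chr1:214603030-214603194 (plus strand), PCNA at chr20:5126623-5126787 (minus strand) and E2F1 at chr20:33686386-33686550 (minus strand).
CCNB1: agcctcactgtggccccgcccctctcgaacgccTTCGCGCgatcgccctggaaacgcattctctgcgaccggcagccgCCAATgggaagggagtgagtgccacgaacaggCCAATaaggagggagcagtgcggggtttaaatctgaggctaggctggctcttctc
CCNB2: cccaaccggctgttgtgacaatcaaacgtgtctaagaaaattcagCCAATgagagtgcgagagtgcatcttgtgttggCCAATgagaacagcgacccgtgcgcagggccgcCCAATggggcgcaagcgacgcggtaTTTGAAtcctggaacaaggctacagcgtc
CDC20: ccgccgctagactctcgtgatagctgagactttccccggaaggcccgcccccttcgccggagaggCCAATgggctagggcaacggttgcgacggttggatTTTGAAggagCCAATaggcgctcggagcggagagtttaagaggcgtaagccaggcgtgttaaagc
PLK1: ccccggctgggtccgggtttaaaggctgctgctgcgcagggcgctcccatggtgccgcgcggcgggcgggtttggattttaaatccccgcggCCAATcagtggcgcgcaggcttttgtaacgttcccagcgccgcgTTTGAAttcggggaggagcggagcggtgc
CDK1: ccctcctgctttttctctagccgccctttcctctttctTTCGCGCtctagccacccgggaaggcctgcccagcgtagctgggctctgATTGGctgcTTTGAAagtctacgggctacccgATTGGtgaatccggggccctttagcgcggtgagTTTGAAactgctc
CENPF: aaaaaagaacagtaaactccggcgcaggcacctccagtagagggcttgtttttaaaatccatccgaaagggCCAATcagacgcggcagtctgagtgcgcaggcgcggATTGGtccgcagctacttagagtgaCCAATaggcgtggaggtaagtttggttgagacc
PCNA: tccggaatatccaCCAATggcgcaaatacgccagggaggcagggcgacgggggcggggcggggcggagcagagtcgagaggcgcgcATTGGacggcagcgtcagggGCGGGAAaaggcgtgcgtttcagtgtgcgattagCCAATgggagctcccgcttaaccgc
E2F1: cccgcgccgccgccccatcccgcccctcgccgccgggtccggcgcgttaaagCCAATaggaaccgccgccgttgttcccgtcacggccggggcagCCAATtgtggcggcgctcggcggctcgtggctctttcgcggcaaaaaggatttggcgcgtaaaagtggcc
In CCNB2 the TTTGAA began 29 bases before the start and followed CCAAT boxes at 120, 87 and 54 bases, and in PLK1 it began at the same distance with a CCAAT box at 73 bases. In CDC20 it lay at 65 bases between boxes at 100 and 55 bases. The second listed start of CDK1, shown because the letters lie closer to it, had TTTGAA at 69 and 13 bases, CCAAT boxes on the opposite strand at 78 and 46 bases, and an E2F element at 127 bases. CCNB1 and CENPF held CCAAT boxes and no CHR letters in the printed stretch, and PCNA held the E2F letters GCGGGAA at 59 bases with 3 CCAAT boxes. E2F1 held 2 CCAAT boxes and neither of the E2F forms searched. Other forms of that element were not searched.

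Counted over the genes, CHR letters were in 40.3% of the 300 promoters of higher genes (34.7 to 46.1%), in 12.7% of the 63 of lower genes (5.65 to 23.5%) and in 15.1% of all 6470. In the mitotic lists the share was 68.6% of 70 promoters, and in the replication list 5.56% of 36. E2F letters were distributed the other way, with 58.3% in the replication list, 22.9% in the mitotic lists, 32.7% in all higher genes and 18.8% in all 6470. CCAAT boxes were in 77.1% of the mitotic, 63.9% of the replication and 43.9% of all promoters, and CHR letters together with a CCAAT box in 55.7, 5.56 and 6.58%. TATA letters were in 5.67% of higher, 14.3% of lower and 7.60% of all promoters. In the whole table of 27305 genes the shares were 19.5% for CHR, 39.7% for CCAAT, 10.2% for E2F and 14.0% for TATA letters. Along the fold change, CHR letters went from 13.5% of promoters of genes between -0.25 and 0.25 to 39.2% between 1 and 2, 50% between 2 and 3, and 75% of the 44 promoters at 3 or more. These are matches of letters, not sites at which a factor was measured.

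**Figure D4:**
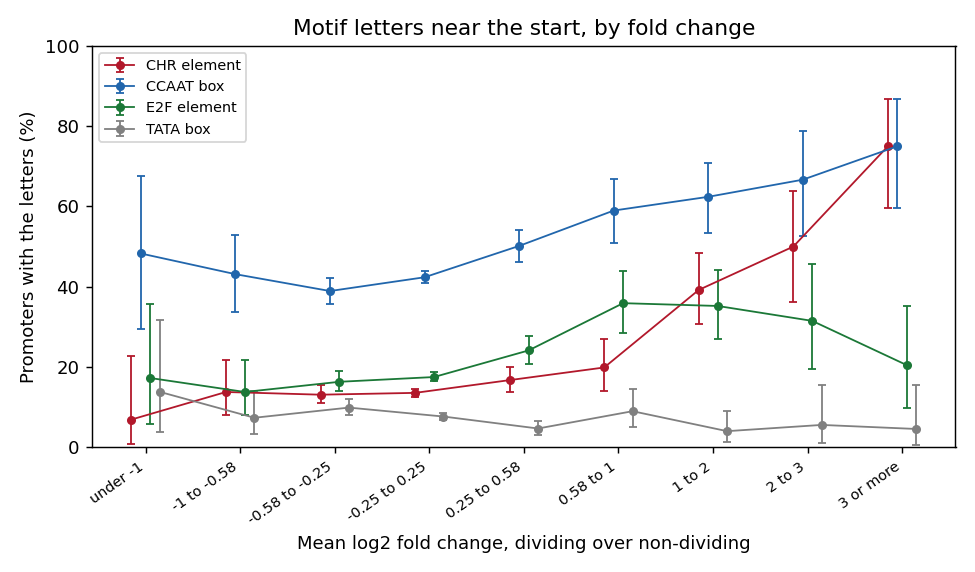
Share of promoters that hold each motif (y axis, %) against the mean log2 fold change of dividing over non-dividing cells (x axis, 9 bins). Bars are exact binomial intervals (95%); CHR letters reach 75% in the highest bin, while E2F letters are at 35.9% between 0.58 and 1 and at 20.5% in the highest bin.

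DNA replication genes were higher by less and less evenly, with 27 of 42 past the limit at all times (43 in the list) and medians of 0.96, 0.95, 0.96 and 0.94. ASF1B, a histone chaperone at the fork, had 73.3, 61.0, 63.5 and 62.2 CPM in dividing cells and 8.35, 11.8, 10.3 and 8.65 CPM in non-dividing cells. MCM10, which helps to start the replication helicase, had 57.0, 54.5, 60.7 and 64.2 CPM against 9.79, 9.38, 10.3 and 8.54 CPM. The subunits of the helicase ring differed among themselves. MCM7 averaged 1.27, while MCM2 had 19.5, 18.9, 23.2 and 21.5 CPM against 14.8, 15.5, 16.9 and 12.9 CPM, MCM3 averaged 0.17, MCM4 0.25 and MCM5 0.14, and MCM6 was lower in dividing cells at every time, 38.6, 39.9, 41.3 and 38.5 CPM against 51.1, 54.3, 50.6 and 48.7 CPM. PCNA, the clamp that holds the polymerase on DNA, was at 172, 160, 153 and 151 CPM against 107, 113, 101 and 94.2 CPM, a ratio of 1.42 (1.31 to 1.54) to 1.6 over the times, below the limit at 2 h only.

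The supply of deoxynucleotides showed a similar division. RRM2, the regulated subunit of ribonucleotide reductase, had 113, 111, 97.9 and 102 CPM in dividing cells and 7.64, 8.87, 6.15 and 6.32 CPM in non-dividing cells, and TK1, thymidine kinase, 124, 109, 108 and 113 CPM against 19.1, 19, 22.1 and 16.3 CPM. TYMS, which makes thymidylate, had 226, 213, 215 and 233 CPM against 83.1, 82.2, 75.7 and 77.8 CPM. RRM1 and DUT were also among the 6 of 14 members past the limit. The remaining 8, which serve purine and pyrimidine synthesis at large, averaged between -0.03 (GART) and 0.49 (MTHFD1). Of the DNA repair genes 15 of 21 were higher, with medians of 1.31 to 1.52, among them EXO1, a nuclease (2.86 on average). The mismatch repair gene MSH6 was lowest, at 29.7, 30.2, 31.4 and 30.0 CPM against 44.4, 39.0, 42.9 and 43.7 CPM, and this difference was -0.47 on average in all cells and -0.011 in cells of like depth.

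Histone genes had medians of 1.42, 1.77, 1.82 and 2.22 and 8 of 11 members past the limit, while 19 of the 30 in the list were below the minimum. Most histone messages end in a stem-loop and not in a poly(A) tail, by which this assay captures RNA, and near-identical copies can share reads, so single members are uncertain. HIST1H3B had 53.2, 56.7, 44.2 and 65.6 CPM in dividing cells and 4.3, 1.90, 1.82 and 1.75 CPM in non-dividing cells. HIST1H4C had 18.0, 48.3, 10.4 and 7.71 CPM against 1 to 11 UMIs a pool, and its UMIs sat in few cells, 3.25% of the dividing cells having one. HIST1H2BD lay at -0.17 on average and HIST3H2A at -0.12. Outside the list, H1F0, a linker histone of resting and differentiated cells, had 153, 95.3, 77.6 and 108 CPM against 37.2, 26.6, 23.0 and 25.1 CPM; it was chosen after its values were seen.

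The regulators of the step from G1 into S phase were close to even. Of 20 members past the minimum 3 were higher at all times (CDK2, CDC25A and CDKN2C) and 1 lower (CCND2), and the medians were 0.16, 0.07, 0.11 and 0.20. CCNE1, which drives entry into S phase with CDK2, had 25.3, 22.4, 26.9 and 28.6 CPM in dividing and 19.6, 22.7, 24.6 and 25.6 CPM in non-dividing cells. CCND1, the G1 cyclin that responds to growth signals, was lower in dividing cells without reaching the limit, at 400, 511, 460 and 542 CPM against 566, 704, 602 and 702 CPM, a ratio of 0.706 (0.666 to 0.747) at 0 h and 0.772 (0.745 to 0.8) at 8 h. CDKN2C, an inhibitor of CDK4 and CDK6, had 30.5, 24.6, 22.4 and 21.7 CPM against 7.16, 5.70, 6.15 and 6.20 CPM. The inhibitor CDKN1C (p57) had 11.3, 10.6, 10.6 and 8.85 CPM against 29.4, 21.0, 16.4 and 18.4 CPM, with 4 h just short of the limit. Its mean log2 fold change was -0.95 in all cells, -0.83 under 1% GFP and -0.045 in cells of like depth. Of the inhibitors best known for arrest, CDKN1A (p21) had 26.3, 32.7, 29.5 and 38.0 CPM against 30.3, 25.2, 29.6 and 24.6 CPM, and CDKN1B (p27) had 44.1, 38.8, 34.1 and 40.4 CPM against 34.1, 29.9, 33.7 and 33.9 CPM. CDKN1A passed the limit upward at 8 h (ratio 1.55) and not at the other times, and its mean log2 fold change was 0.19 in all cells and 0.84 in cells of like depth. CCNG2, an atypical cyclin of resting cells, had 17.5, 14.0, 8.78 and 9.47 CPM against 14.6, 8.99, 11.4 and 8.77 CPM.

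Among the factors that drive these programs, those of G2 phase and mitosis stood out. MYBL2 had 52.9, 51.2, 51.2 and 54.3 CPM in dividing cells and 5.73, 5.07, 7.29 and 5.73 CPM in non-dividing cells, and FOXM1 had 77.5, 69.8, 61.5 and 70.3 CPM against 11.7, 16.1, 14.1 and 18.5 CPM. MYBL1 (1.91 on average) and E2F7 (2.12), a repressor E2F, completed the 4 of 12 members past the limit. E2F1 had 24.4, 21.7, 24.4 and 25.2 CPM against 12.4, 14.2, 10.3 and 12.6 CPM and missed the limit at 2 h. E2F3, E2F4, E2F6, TFDP1 and TFDP2 averaged between -0.26 and 0.29. MYC, a driver of growth, had 14.8, 28.7, 27.4 and 27.3 CPM against 19.6, 33.2, 36.2 and 36.3 CPM.

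The levels also changed within the dividing cells as the sum of TOP2A and MKI67 went up, and not in one direction. Summed over the kinases, spindle, kinetochore and anaphase lists, mitotic genes (93 genes) went from 1886 CPM at a sum of 0 to 5645 CPM at 5 to 6 and 12954 CPM at 20 or more. Replication genes were at 1782 CPM at 0, at 3592 CPM at 7 to 9 and at 2552 CPM at 20 or more. PCNA took the same course, with 103 CPM at 0, 210 CPM at 5 to 6 and 100 CPM at 20 or more, as did CCNE2, with 28.1, 49.9 and 16.3 CPM. CCNB1 went from 39.6 CPM through 117 CPM to 440 CPM, and PLK1 from 2.32 through 12.8 to 89.5 CPM. Cells of the highest sums thus had no more PCNA per UMI than non-dividing cells. CCND1 was at 662 CPM at 0, 440 CPM at 10 to 19 and 561 CPM at 20 or more. Along the same bins the median depth went from 16359.5 to 27298 UMIs and median GFP from 0.903 to 0.219% of UMIs.

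**Figure D5:**
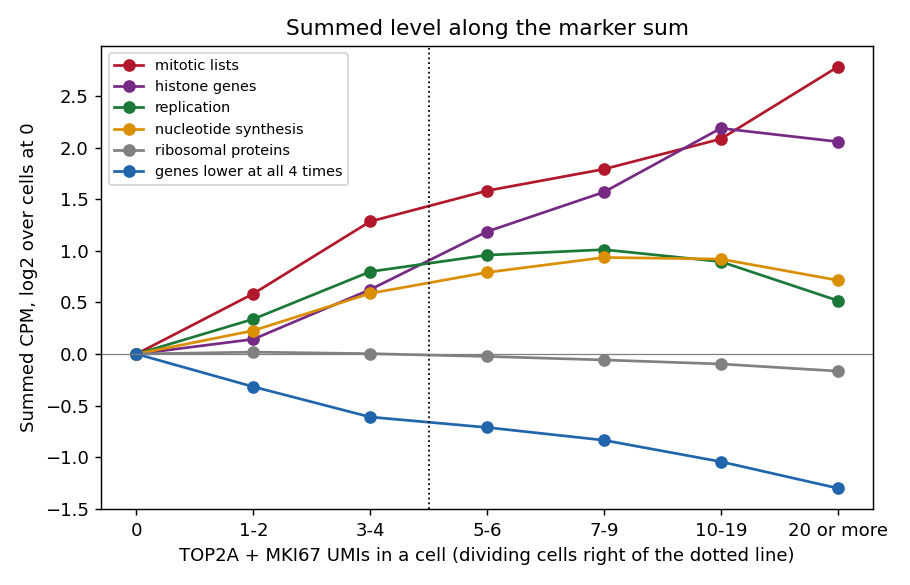
Summed CPM of gene lists, as log2 over cells with a sum of 0 (y axis), in 7 bins of the sum of TOP2A and MKI67 UMIs per cell (x axis), all time points together. Mitotic genes are higher in each bin than in the one before, and ribosomal protein genes differ little. Replication and nucleotide genes are highest between 7 and 9 or close to it and lower again beyond it. The 112 lower genes, chosen for lower levels in these same dividing cells, are lower in each bin than in the one before.

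No step marked the limit of the rule. The 196 cells with a sum of 4, just outside, had 5038 CPM of mitotic genes, and the 138 cells with a sum of 5, just inside, had 5466 CPM. In single cells thinned to 11673 UMIs (1515 dividing and 1231 non-dividing by the full counts), the kinetochore list had a median of 27 UMIs against 4, the spindle list 22 against 3, the mitotic kinases 18 against 3, replication 35 against 19, nucleotide synthesis 21 against 11, and histones 9 against 2. The middle of the dividing cells (10th to 90th percentile) spanned 8 to 42 UMIs for the kinases and 1 to 25 for histones, against 1 to 7 and 0 to 7 in non-dividing cells. Across the 1515 dividing cells, which share 1 library and 1 thinned depth, Spearman's rho was 0.73 between the kinases and the spindle list, 0.57 between replication and nucleotide synthesis, and -0.42 between the kinases and replication. CENPF had at least 1 UMI in 89.1% of thinned dividing cells and 19.9% of non-dividing cells, and PLK1 in 27.2 and 2.52%. In full counts these shares were 95.7 and 27.3% for CENPF, and 40.4 and 3.66% for PLK1.

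Of the 362 higher genes 192 were in no list. Genes of known mitotic or replication function are among them, such as ESCO2, which joins sister chromatids (86.8, 76.1, 72.8 and 75.6 CPM against 3.34, 4.31, 5.70 and 4.33 CPM), and CDCA2, a chromatin phosphatase subunit (3.60 on average). EZH2, the Polycomb methyltransferase, was also among the 192 (108, 99.3, 92.9 and 111 CPM against 69.7, 64.6, 59.7 and 72.2 CPM). ESCO2, CDCA2 and EZH2 were named after their values were seen. CDCA3, a trigger of WEE1 breakdown and one of the 10 highest genes, had 54.9, 54.7, 43.3 and 39.0 CPM against 1.91, 2.91, 2.28 and 1.17 CPM.

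DHRS2, a short-chain dehydrogenase of mitochondria and the nucleus, was an exception among the 10 highest genes. It had 124, 49.5, 84.4 and 176 CPM in dividing cells and 4.54, 2.15, 2.96 and 3.16 CPM in non-dividing cells. The ratios were 27.3 (17.4 to 45.6), 23.0 (14.2 to 39.7), 28.5 (16.5 to 53.8) and 55.8 (38.2 to 84.9). These intervals treat each UMI as independent and are too narrow here, because few cells held most of the UMIs. Its UMIs came from few cells: 8.71, 10.4, 11.8 and 14.6% of dividing cells had one, against 4.56, 3.35, 5.26 and 4.31% of non-dividing cells. Cells with 10 or more DHRS2 UMIs numbered 11, 17, 15 and 32 among the dividing cells and 0 among the 1474 non-dividing cells, which allows a share of up to 0.204%. Among the cells between the limits of the rule they numbered 3, 1, 5 and 4. The 10 cells with the most UMIs held 94.6, 68.3, 79.7 and 55.1% of all DHRS2 UMIs of the dividing pools, so the pool level is that of a minority. Along the marker sum DHRS2 was at 142 CPM at 7 to 9 and at 64.9 CPM at 20 or more, and its rho with the mitotic kinases was 0.04. In T-47D, where it averaged 3.82 CPM, its log2 fold changes by time were 2.97, -0.29, 0.14 and -0.03.

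The 112 lower genes were of another kind. By gene type, 61 of them were long noncoding RNAs (lncRNAs, 54.5%, interval 44.8 to 63.9%) and 50 were protein coding, against 187 lncRNAs (2.33%) among all 8040 genes and 2, TMPO-AS1 and UBL7-AS1, among the 362 higher ones. The median of the 187 lncRNAs was -0.50 against -0.02 for coding genes, and 160 of them (85.6%) were below 0. The lncRNAs were also of lower level, with a median of 17.4 CPM against 33.6 CPM. Under 50 CPM, 55 of 154 lncRNAs (35.7%) and 40 of 5028 coding genes (0.796%) were lower at all times. In cells of like depth 5 lncRNAs were lower at all times and the median was -0.26, in cells under 1% GFP these were 26 and -0.38, and in thinned cells 30 and -0.40. Of the 61, 59 stayed below 0 at like depth, in cells that were part of the pools used to choose them. As a share of all UMIs lncRNAs took 2.38, 2.25, 2.11 and 2.21% in dividing and 2.92, 2.57, 2.33 and 2.51% in non-dividing cells. At 50 CPM or more 6 of 33 lncRNAs were lower at all times, SNHG19 and KMT2E-AS1 among them. MALAT1, an abundant nuclear RNA, was at 14929, 14343, 12678 and 13350 CPM against 15110, 13852, 11474 and 12489 CPM. It made up a large part of the lncRNA UMIs of every pool and so weighs heavily on the lncRNA shares of all UMIs above.

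SNHG19, a host of small nucleolar RNAs, was the most abundant of the 10 lowest genes, at 388, 236, 296 and 354 CPM in dividing cells and 1043, 777, 692 and 923 CPM in non-dividing cells, ratios of 0.304 to 0.427. KMT2E-AS1, transcribed next to the chromatin gene KMT2E, had 35.6, 27.2, 31.8 and 38.9 CPM against 135, 82.7, 84.3 and 96.6 CPM, ratios of 0.263 (0.224 to 0.309) at 0 h and 0.403 (0.358 to 0.453) at 8 h. HOTAIRM1, from the HOXA cluster, had 17.4, 13.7, 16.1 and 15.6 CPM against 50.8, 42.8, 48.3 and 41.2 CPM. AC010997.5 had 15.7, 11.9, 12.6 and 14.9 CPM against 59.7, 41.2, 38.8 and 44.4 CPM, and AC124016.1, AC023908.3, AC025159.1, ZNF236-DT and LINC02062 averaged between -1.38 and -1.77. In cells of like depth ZNF236-DT was at -0.067, and the other four of these were between -0.63 and -1.13. THAP2 was the only gene of the 10 that encodes a protein, at 21.7, 17.9, 19.8 and 21.2 CPM against 61.3, 42.6, 47.4 and 51.2 CPM, a mean of -1.28 that was -0.56 in cells of like depth. No dividing pool of the genes given by pool here overlapped a non-dividing pool, which their choice as the lowest genes favours. Several of these RNAs overlap or face a coding gene, and whether strand was used in counting is not given in the sources used here.

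Of the coding genes among the 112, 8 are given here as examples, chosen after their values were seen. DDIT3 (CHOP), a factor induced by unfolded protein, had 51.9, 43.8, 39.8 and 54.2 CPM in dividing cells and 123, 88.9, 145 and 90.6 CPM in non-dividing cells, and TRIB3, a pseudokinase, 24.9, 16.9, 22.8 and 21.9 CPM against 49.2, 28.4, 46.0 and 39.8 CPM. HERPUD1, which serves protein disposal at the endoplasmic reticulum, had 91.2, 73.0, 78.1 and 74.4 CPM against 144, 130, 181 and 137 CPM. SQSTM1, an autophagy receptor, had 346, 302, 300 and 294 CPM against 548, 520, 523 and 463 CPM, and GABARAPL1, a protein of the autophagosome, averaged -1.12. CITED2, a transcriptional co-regulator, averaged -1.08, the histone demethylase KDM5B -0.95, and PCF11, which ends transcripts at poly(A) sites, -0.98. In cells of like depth PCF11 was at -0.44 and TRIB3 at -0.58 against -0.87 in all, and under 1% GFP CITED2 was at -0.46.

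Estrogen targets had 0 of 20 members past the limit at all times in either direction, with medians of -0.15, -0.19, -0.25 and -0.25. The list of quiescence genes and p53 targets had no member higher and 2 of 21 lower at all times, KLHL24 (9.27, 5.32, 8.65 and 6.49 CPM against 16, 13.3, 14.1 and 13 CPM) and PLK2, with medians of -0.53, -0.21, -0.37 and -0.42. KLHL24 averaged -0.86 in all cells, -0.15 in cells of like depth and -0.56 under 1% GFP, and PLK2 -0.65, -0.67 and -0.57. Immediate-early genes had medians of -0.43, -0.14, -0.28 and -0.17 and 1 of 14 members lower, ATF3, at 46.5, 24.8, 25.4 and 38.0 CPM against 109, 54.6, 77.0 and 63.7 CPM. Of 16 heat shock genes 2 were lower, DNAJB4 and HSPA6 (11.1, 1.66, 7.98 and 9.38 CPM against 33.7, 3.93, 48.6 and 16.5 CPM). DNAJB4 averaged -0.84 in all cells, -0.27 in cells of like depth and -0.56 under 1% GFP. HSP90AA1, an abundant chaperone, had 3463, 3612, 3256 and 3509 CPM against 2960, 2756, 2823 and 3066 CPM. None of 36 ribosomal protein genes, 13 mitochondrial transcripts, 15 glycolysis genes or 15 keratins and adhesion genes passed at all times in either direction. Their medians lay between -0.15 and 0.18, and RPL41, the highest of the ribosomal genes, averaged 0.09.

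The number of lower genes changed with the depth and the GFP load of the cells, and that of higher genes changed little. In cells of 15000 to 20000 UMIs only, 347 genes were higher, 305 of them among the 362, and all 362 stayed above 0. In the same cells 9 genes were lower, 7 of them among the 112, although 108 of the 112 stayed below 0, with a median of -0.54 in place of -0.98. Among cells under 1% GFP 346 genes were higher and 47 lower, and all 112 stayed below 0 with a median of -0.84. The 362 and the 112 were chosen in pools that include these cells, so a kept sign is no independent evidence. KMT2E-AS1 was at -0.58 in cells of like depth and at -1.24 in cells under 1% GFP, against -1.53 in all, SNHG19 at -0.78 and -1.30 against -1.44, and DDIT3 at -0.79 and -1.18 against -1.20. ATF3, HSPA6 and CLDN4, a tight junction protein that averaged -0.59 in all cells, were at 0.16, 0.19 and 0.079 in cells of like depth, and HSPA6 and CLDN4 at -0.38 and -0.42 under 1% GFP. On the higher side PCNA averaged 0.61 in all cells and 0.51 under 1% GFP, EZH2 0.62 and 0.55, and FKBP5 0.61 and 0.45, with 0.44 at like depth. The pools of like depth held at least 51 cells each.

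The same rule in T-47D gave sets of genes that overlapped those of Ishikawa. Among 6596 genes past the minimum in both lines, 333 (5.05%) were higher in Ishikawa and 678 (10.3%) in T-47D, and 308 were in both sets, 92.5% of the Ishikawa and 45.4% of the T-47D genes. On its own minimum T-47D had 755 higher (9.97%) and 110 lower genes (1.45%) of 7575. Of the same 6596 genes 43 (0.652%) were lower in Ishikawa and 61 (0.925%) in T-47D, and 12 were in both sets, 27.9% and 19.7%. The folds of T-47D were larger for replication, with list medians of 2.67 to 2.89 against 0.94 to 0.96. MCM2 was at 2.81, 3.1, 2.78 and 3.23 in T-47D, and MCM6, lower in dividing Ishikawa cells, at 2.69, 2.56, 2.27 and 2.70. PCNA was at 2.77 to 3.1 and CCNE2 at 3.42 to 3.90, beside 0.50 to 0.68 and 0.11 to 0.51 in Ishikawa. Over 82 lncRNAs past the minimum in both lines the medians were -0.31 in Ishikawa and -0.26 in T-47D, with coding genes at -0.01 and 0.03. None of these differences between the lines has a test, and the dividing groups differ in size and depth.

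HIST1H4H, a histone H4 gene chosen after its values were seen, was the only gene past the limit in opposite directions in the lines. In Ishikawa it had 59.0, 50.1, 58.7 and 81.7 CPM in dividing cells and 21.5, 13.9, 14.4 and 14.5 CPM in non-dividing cells, log2 fold changes of 1.42, 1.77, 1.96 and 2.42, against -1.16, -1.18, -0.67 and -0.92 in T-47D. HIST1H2BC (1.88, 1.64, 1.82 and 2.22) and HIST1H1C (1.40, 1.73, 1.35 and 1.77) were also higher in Ishikawa and between -0.11 and -0.71 in T-47D. HIST1H3B was high in both lines, at 3.93 to 4.87 in T-47D.

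Last, the response to E2 was followed inside each group, with all later times set against the same 0 h pool of the group, so the 3 times are not independent. In dividing cells 64 (0.796%), 79 (0.983%) and 89 (1.11%) genes were at least 1.5-fold higher at 2, 4 and 8 h and 72 (0.896%), 82 (1.02%) and 72 (0.896%) lower. In non-dividing cells these were 104 (1.29%), 106 (1.32%) and 117 (1.46%) higher and 170 (2.11%), 162 (2.01%) and 79 (0.983%) lower, from pools with fewer UMIs. The list of estrogen targets had medians of 0.16, 0.21 and 0.34 at 2, 4 and 8 h in dividing and 0.17, 0.23 and 0.38 in non-dividing cells, and the mitotic kinases and cyclins -0.07, -0.24 and -0.19 against 0.07, 0.11 and -0.09. At 8 h 43 higher genes were common, 48.3% of those in dividing and 36.8% of those in non-dividing cells, and 23 lower genes, 31.9 and 29.1%.

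The genes raised or lowered most 8 h after E2 were picked over all kept cells, both groups among them, which favours a shared direction. At 8 h the genes of this paragraph moved in the same direction in both groups. G0S2, an inhibitor of fat breakdown, went from 11.1 to 108, 121 and 68.1 CPM in dividing cells and from 20.3 to 170, 192 and 101 CPM in non-dividing cells. DHRS3, which reduces retinal, went from 2.19 to 6.64, 18.5 and 20.9 CPM and from 2.15 to 9.12, 12.1 and 20.9 CPM. TGFA, a growth factor, went from 10.4 to 29.8, 34.7 and 40.8 CPM and from 14.3 to 39.1, 45.8 and 49.6 CPM, with ratios at 8 h of 3.91 (3 to 5.18) and 3.46 (2.64 to 4.62). NRTN, the neurturin ligand, was at 3.82 (3 to 4.94) and 3.98 (3.02 to 5.32), the potassium channel KCNK15 at 3.92 (2.64 to 6.04) and 3.25 (2.18 to 5.03), and MYC at 1.84 (1.45 to 2.36) and 1.85 (1.45 to 2.39). PGR, the progesterone receptor, was at 0.842 and 5.61 CPM at 0 and 8 h in dividing and 1.67 and 5.38 CPM in non-dividing cells. For each of these genes the intervals of both groups overlapped at 8 h. PRSS8, a membrane protease, had ratios of 0.466 (0.364 to 0.595) and 0.443 (0.340 to 0.576), and KRT5, a basal keratin, of 0.527 (0.422 to 0.656) and 0.553 (0.428 to 0.717). ESR1, the receptor of E2, was at 0.711 (0.609 to 0.830) and 0.859 (0.720 to 1.03).

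A few responses were of unequal size or were not seen in both groups. IER3, an immediate-early gene, started at 30.0 CPM in dividing and 7.40 CPM in non-dividing cells and stood at 9.97, 7.85 and 9.03 CPM against 4.18, 5.47 and 7.84 CPM at 2, 4 and 8 h. Its ratio at 8 h over 0 h was 0.301 (0.234 to 0.386) in dividing and 1.06 (0.682 to 1.68) in non-dividing cells, and the intervals did not overlap. Among cells under 1% GFP, however, the log2 fold changes at 8 h were -1.54 and -1.07, and both groups were lower there than at 0 h. FGFBP1, a carrier of fibroblast growth factors, went from 267 to 113 CPM and from 152 to 87.1 CPM, ratios of 0.422 (0.392 to 0.455) and 0.573 (0.515 to 0.638). Its log2 fold changes under 1% GFP were -1.28 and -0.80. CRYAB, a small heat shock protein, had ratios at 8 h of 0.667 (0.491 to 0.909) and 0.340 (0.246 to 0.468). At 4 h it was higher than at 0 h in dividing cells, with a ratio of 2.16 (1.66 to 2.83). In non-dividing cells the ratio at 4 h was 0.711 (0.518 to 0.973). Among cells under 1% GFP its log2 fold changes were 0.12 and 0.21 at 4 h and -0.23 and -0.33 at 8 h. HSD17B7, an enzyme of sterol and estradiol synthesis chosen after its values were seen, was the only gene past the limit in opposite directions at one time, with -0.70 in dividing (106 UMIs at 0 h, 80 at 4 h) and 0.64 in non-dividing cells (34 and 58 UMIs).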

How the data were processed

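The deposited counts are whole numbers of UMIs per gene and cell barcode, which the authors made with Cell Ranger 3.1.0 on hg38 according to the submitters' processing notes. The deposited tag tables give each barcode's time point or doublet call. Ishikawa cells with 1 time point, 2700 to 6000 genes, 8500 to 35000 UMIs and less than 7% of UMIs from mitochondria were kept (T-47D: 7500 to 40000 UMIs, 1500 to 6000 genes, under 20%). Of 14985 Ishikawa barcodes 9077 had a time point. Barcodes called doublets by their tags were left out, pairs of cells of the same time point were not, and no other caller was run. The lines shared 80 barcodes with a time point, 5 of them kept in both.

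UMIs were summed per group and time point without GFP and tdTomato and scaled to CPM. Fold changes are log2((CPM + 1)/(CPM + 1)), for genes averaging 10 CPM or more in the 8 pools, called at 1.5-fold. TOP2A and MKI67 were left out of calls. Intervals (95%) are exact Poisson for CPM, exact conditional binomial for ratios and Clopper-Pearson for shares. Thinning drew 11673 UMIs per cell without replacement, the 10th percentile of kept cells. Gene types were matched by identifier for 8024 of 8040 genes (GENCODE on GRCh37, types only).

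The members, the lists and the rule for named genes were chosen with earlier results of these data known. Named were a set of cell cycle and estrogen genes whatever their values, the 10 genes with the largest smallest fold in each direction, the 2 highest and the lowest member of each list, and the 5 highest and 5 lowest genes 8 h after E2. A few genes that the rule names are not reported here. Alternatives changed depth, limits, groups, totals (TMM of edgeR 4.0.16, median of ratios), minimum, fold and pseudocount. Scripts ran in Python 3.11.15 with numpy 2.4.6, pandas 2.3.3 and scipy 1.17.1 and were tested on simulated data.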

Additional observations from a re-analysis of the deposited data

Results flagged for a closer look

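HSD17B7 changed in opposite directions 4 h after E2, with a log2 fold change of -0.70 in dividing and 0.64 in non-dividing cells. The difference between the groups was not tested, since each came from 1 culture per time point, and it rests on 106 and 80 UMIs against 34 and 58 UMIs.

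HIST1H4H stood in opposite directions in the lines, at 8 h with 2.42 in Ishikawa and -0.92 in T-47D. This difference was not tested either.

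Barcodes outside the comparison also held dividing cells by the same rule. Among those called doublets by their tags and within the limits the share was 37.3% (193 of 517), and among those with no call 33.4% (942 of 2819), beside 34.0% of kept cells.

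GFP, which was left out of every pool total and served only to limit cells in an alternative, took 2.15% of the UMIs of dividing cells and 7.03% of those of non-dividing cells at 0 h.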

How the results depend on the processing

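The dividing and non-dividing pools of each culture form a pair, and every fold change between the groups was taken within a pair. No paired test was run, because the groups were split by counts of the same cells. Leaving out each culture in turn, an alternative chosen after seeing the data, gave 368 to 403 higher and 108 to 142 lower genes. There a gene had to pass at the remaining time points only, a looser rule, so these counts do not measure how far the calls depend on 1 culture. The share of dividing cells at 0, 2, 4 and 8 h was 27.3, 26.5, 23.6 and 23.3% in thinned cells, 42.9, 44.7, 44.7 and 42.3% at a sum of 3 or more, 20.7, 23.1, 20.9 and 19.2% at 10 or more, and 42.6, 42.0, 41.8 and 39.8% among cells under 1% GFP. With the upper limit on UMIs lowered to 30513, the share of dividing cells was 32.5% at 2 h and 29.0% at 8 h.

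The 362 higher genes became 123 at a minimum of 50 CPM, 577 at a log2 limit of 0.32 and 229 at 2-fold. The 112 lower genes became 56 in thinned cells, 9 in cells of 15000 to 20000 UMIs, 64 with TOP2A alone, 189 in every called cell, 47 under 1% GFP, 264 with no minimum, 16 at 50 CPM, 364 at the log2 limit of 0.32 and 23 at 2-fold. In every alternative all 362 stayed above 0. They were chosen in these same cells, and a change of minimum or of fold limit leaves each fold change as it is. The kept sign is therefore no independent evidence. TMM factors gave 405 higher and 85 lower genes and moved the median of all genes from -0.03 to 0.04.

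Of the 71 named genes past 1.5-fold by their mean, ATF3 (0.16 against -1.15), HSPA6 (0.19 against -1.41) and CLDN4 (0.079 against -0.59) changed sign in cells of 15000 to 20000 UMIs. Some named genes with smaller means also changed sign there, such as PRSS8 (0.53 against -0.16). Of the values of named genes under the alternatives, 1267 moved by less than the spread between the time points and 424 by more. The cause was not tested.

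Of the genes 8 h after E2, the 72 lower in dividing cells became 30 with a pseudocount of 5. In non-dividing cells the 117 higher became 62 with that pseudocount and 226 under 1% GFP, and the 79 lower became 32 and 221. A window from 100 bases before the start gave 33.0% of higher genes with CHR, 53.7% with CCAAT, 26.0% with E2F and 3.33% with TATA letters. The first listed start alone, also added after seeing the data, gave 56.3% with CCAAT and 26.7% with E2F letters. Depth limits low genes: PLK1 rested on 8 to 21 UMIs a pool in non-dividing cells.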
